A study of Mus musculus with 9 samples.

Results

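The genes described are the ErbB receptors (Egfr, Erbb2, Erbb3 and Erbb4) and 6 of their ligands (Areg, Ereg, Hbegf, Btc, Tgfa and Nrg1). They were chosen by gene symbol, and all 10 were found among the 24346 genes of a table of expression values for 9 RNA-seq libraries. The libraries came from cultured lines of mammary tumours that arose in MMTV-neu animals of the FVB/N strain, where the promoter of mouse mammary tumour virus drives the rat neu (Erbb2) oncogene. The lines carried either the knockout or the wild-type form of Jak1, the kinase that connects cytokine receptors to STAT factors. The 4 knockout libraries were the Cre libraries of lines 45555, 47298 and 45566B and the library named 46295-D6, and the 5 wild-type libraries were the Wt libraries of the same 3 lines and the lines 33373 and 33377. All were cultured cells in a medium that held epidermal growth factor, insulin, hydrocortisone and serum, and lines 45555, 47298 and 45566B also received puromycin. There was 1 library for each line and state and no separate culture was named. P-values therefore rest on the spread among these lines, with any technical spread included. The spread between repeat cultures of a line is not known.

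ErbB proteins are receptor tyrosine kinases that pair with each other once a ligand is bound. EGFR binds amphiregulin, epiregulin, HB-EGF, betacellulin and TGF-alpha, ERBB3 and ERBB4 bind neuregulins, and ERBB2 has no known ligand of its own. ERBB3 has a weak kinase and signals mainly as the partner of ERBB2, and that pair drives many mammary tumours of MMTV-neu mice. The ligands are made as membrane proteins that ADAM proteases cut free.

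Expression is given as FPKM, which divides the fragments of a gene by its length and by the depth of the library, so levels can be set side by side between genes. The number of fragments behind a value is unknown. Low values move in steps of 1 fragment, and those steps put the relative depth of the libraries between 0.415 (46295) and 1 (45566B wild type). A library held between 10821 and 11622 genes at 1 FPKM or more. Jak1 itself, a check of the labels, stood at 74.4, 27.5, 14.2 and 23.0 FPKM in the knockout libraries of 45555, 47298, 45566B and 46295. In wild type it stood at 86.7, 63.1 and 16.1 FPKM in 45555, 47298 and 45566B, 19.4 in 33373 and 54.6 in 33377. The 2 states overlapped in Jak1, and a level over the whole gene does not resolve a deleted part.

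The labels do not say which lines are epithelial, so markers were read in every library. Of 10 epithelial markers, 9 reached 1 FPKM in both 45566B libraries, in 46295 and in 33373, with summed levels of 2633 to 3178 FPKM. In these 4 libraries Krt19 was listed at 0 in all but 33373. The count was 1 of 10 in both libraries of 45555, with sums of 7.47 FPKM in knockout and 7.22 in wild type. It was 3 of 10 in 47298 knockout (sum 415 FPKM), 4 of 10 in 47298 wild type (100.0 FPKM) and 5 of 10 in 33377 (162 FPKM). The 10 mesenchymal markers summed to between 125 and 1417 FPKM in the first 4 libraries and to between 2559 and 9115 FPKM in the other 5. Of them, 3 reached 1 FPKM in each 45566B library, 4 in 46295 and 8 in 33373, against 9 or 10 in the others. Twist1 did not follow the sums, at 42.2 FPKM in 45566B knockout, 40.8 in 45566B wild type and 25.0 in 46295. It was at 1.45 FPKM in 47298 knockout and highest in 33377 at 99.2. Of 5 immune markers, Cd3e was at 0 in all 9 libraries and Ptprc in 5, and Cd68 was highest in 46295 at 106 FPKM. The 4 endothelial markers summed to at most 4.09 FPKM. Of 6 basal and myoepithelial markers, Krt5 was at most at 0.0882 and Krt17 at most at 0.0756 FPKM. Krt14 was at 30.8 FPKM in 33373, 6.39 in 45566B knockout, 3.575 in 45566B wild type and 1.765 in 46295. In the others Krt14 was at most at 0.165 FPKM, and Trp63 was highest in 33377 at 2.355 FPKM. The highest sum of the 6, 1296 FPKM in 45555 knockout, was nearly all Acta2 (1295.5 FPKM), a contractile gene. In a culture, fewer cells of a type and less RNA per cell cannot be told apart.

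The promoters of Areg, Btc and Tgfa are shown because the levels of these 3 ligands went together between lines, and that of mouse Erbb2 because the neu transgene is driven by the viral promoter in its place. The windows run from 250 bases before to 50 after the start site and come from RefSeq on build GRCm38.p6, in which 6 of the 10 genes had an entry. Mouse Erbb2 lies at chr11:98412234-98412533 on the plus strand, Areg at chr5:91139349-91139648 on the plus strand, Btc at chr5:91402945-91403244 on the minus strand and Tgfa at chr6:86194972-86195271 on the plus strand. Capitals mark matches, on either strand, to 4 motifs: an E-box of the kind that ZEB and SNAIL repressors bind, the TATA box, and the motifs of AP-2 and STAT factors.
Erbb2: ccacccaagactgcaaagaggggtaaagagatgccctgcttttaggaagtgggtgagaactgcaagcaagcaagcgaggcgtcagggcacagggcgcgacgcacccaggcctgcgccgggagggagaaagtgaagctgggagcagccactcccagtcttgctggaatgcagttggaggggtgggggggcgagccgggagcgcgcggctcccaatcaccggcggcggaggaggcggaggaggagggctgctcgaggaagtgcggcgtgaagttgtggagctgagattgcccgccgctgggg
Areg: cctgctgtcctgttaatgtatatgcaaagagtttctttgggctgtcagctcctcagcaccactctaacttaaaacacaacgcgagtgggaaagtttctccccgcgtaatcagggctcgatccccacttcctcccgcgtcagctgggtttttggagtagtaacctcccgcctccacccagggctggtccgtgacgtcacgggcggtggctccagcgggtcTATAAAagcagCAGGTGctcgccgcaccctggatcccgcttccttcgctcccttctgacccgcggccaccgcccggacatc
Btc: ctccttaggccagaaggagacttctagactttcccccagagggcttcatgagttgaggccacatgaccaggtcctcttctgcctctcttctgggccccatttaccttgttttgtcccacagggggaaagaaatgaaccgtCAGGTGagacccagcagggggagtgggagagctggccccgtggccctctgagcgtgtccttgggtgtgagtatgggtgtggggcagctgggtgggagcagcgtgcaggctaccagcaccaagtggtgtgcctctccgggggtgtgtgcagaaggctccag
Tgfa: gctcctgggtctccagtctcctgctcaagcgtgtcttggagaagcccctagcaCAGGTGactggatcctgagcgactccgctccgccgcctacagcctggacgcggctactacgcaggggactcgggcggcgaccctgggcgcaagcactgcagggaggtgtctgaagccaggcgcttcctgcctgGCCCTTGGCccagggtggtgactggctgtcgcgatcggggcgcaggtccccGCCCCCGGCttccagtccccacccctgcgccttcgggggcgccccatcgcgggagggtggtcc

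The E-box, searched as CAGGTG, was found 1 time in each of the windows of Areg (at position -20 from the start site), Btc (-110) and Tgfa (-197), and in 20.2% of all 32851 promoter windows. It was in none of the windows of Erbb2, Egfr and Erbb4. Areg held the TATA box, searched as TATAAA, at position -31, and 13.6% of all windows held it at some place. Tgfa held the AP-2 motif, searched as GCCNNNGGC, at positions -64 and -13, and 16.6% of all windows held it. No window of the 6 genes held the STAT motif, searched as TTCNNNGAA, which was in 8.3% of all windows, and no matches overlapped. The matches are descriptions of letters, and no binding was measured.

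Erbb2, the receptor that the transgene encodes in its rat form, was the most abundant ErbB receptor in 7 of the 9 libraries. It stood at 9.47 FPKM in the knockout library of 45555, 243 in that of 47298, 264 in that of 45566B and 314 in 46295. The wild-type libraries held 7.84 FPKM in 45555, 37.6 in 47298, 335 in 45566B, 160 in 33373 and 19.7 in 33377. The 2 states overlapped fully, and 5 libraries at 160 to 335 FPKM stood apart from 4 at 7.84 to 37.6 FPKM. Reads of the rat transgene may be included in this row, so a change here cannot be given to the mouse gene or to neu.

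Erbb3, the partner of ERBB2, was high in the same libraries with 1 exception. Its level was 24.5 FPKM in 45566B knockout and 26.8 in 46295, and 32.8 in 45566B wild type and 11.1 in 33373. In 47298 it was at 2.85 FPKM in knockout and 0.557 in wild type. The 33377 library held 0.424 FPKM, and in 45555 the gene was listed at 0 in knockout and at 0.0137 FPKM in wild type. So 47298 knockout had Erbb2 within the range of the 4 libraries with high epithelial markers, and Erbb3 below each of them.

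Egfr, which binds EGF and its relatives, was found in every library and varied least of the receptors that were detected. Its knockout levels were 8.89 FPKM in 45555, 23.2 in 47298, 11.8 in 45566B and 7.81 in 46295. Wild-type levels were 17.2 FPKM in 45555, 50.2 in 47298, 12 in 45566B, 14.3 in 33373 and 19.6 in 33377. Its standard deviation over the 9 libraries was 0.77 on the log2(FPKM + 1) scale, against 2.19 for Erbb2 and 2.17 for Erbb3, while the median over all genes averaging 1 FPKM or more was 0.50. Of those genes, 95.2% varied less than Erbb2 and 69.9% less than Egfr.

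Erbb4, the other neuregulin receptor, was listed at 0 in all 9 libraries.

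**Figure D1:**
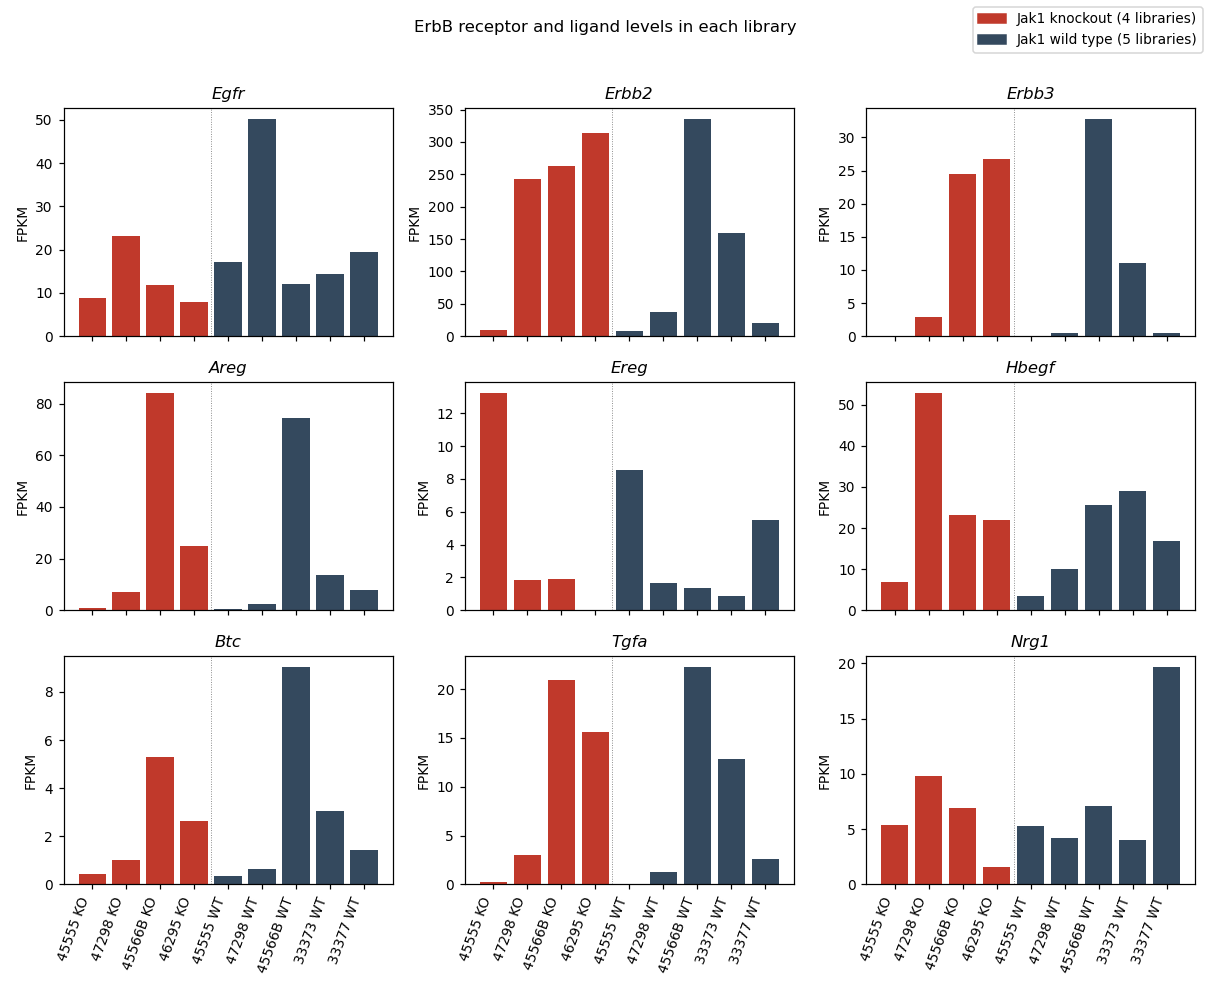
Level in FPKM (y axis, linear from 0) of the 9 ErbB genes with a value above 0, 1 bar per library, with the 4 knockout libraries (red, left) and the 5 wild-type libraries (dark, right). In Erbb2, Erbb3, Areg, Hbegf, Btc and Tgfa the 2 libraries of 45555 are the lowest of the 9, and in Ereg they are the highest.

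The make-up of the receptors followed these levels. Erbb2 made up 90.3% of the summed FPKM of Egfr, Erbb2 and Erbb3 in 47298 knockout, 87.9% in 45566B knockout and 90.1% in 46295, against 88.2% in 45566B wild type and 86.3% in 33373. In 45555 its share was 51.6% in knockout and 31.3% in wild type. It was 42.6% in 47298 wild type and 49.6% in 33377. The ratio of Erbb2 to Egfr therefore ran between 0.455 in 45555 wild type and 40.2 in 46295. Within line 47298 it was 10.5 in knockout and 0.75 in wild type, and within 45566B 22.4 in knockout and 27.9 in wild type.

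Among the ligands, Areg (amphiregulin), Tgfa (TGF-alpha) and Btc (betacellulin) were lowest in 45555, as Erbb3 was. Hbegf, given further on, was lowest there too. Areg was at 0.868, 7.22, 84.1 and 24.8 FPKM in the knockout libraries of 45555, 47298, 45566B and 46295. Its wild-type values were 0.369, 2.30 and 74.5 FPKM in 45555, 47298 and 45566B, 13.7 in 33373 and 7.77 in 33377. Both libraries of 45566B were far above the others, and the states overlapped.

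Tgfa was at 0.234, 3.04, 21.0 and 15.6 FPKM in the knockout libraries in the same order. In wild type it was at 0.0781 FPKM in 45555, 1.22 in 47298, 22.2 in 45566B, 12.9 in 33373 and 2.65 in 33377. Btc ran lower, with 0.411, 1.01, 5.29 and 2.62 FPKM in knockout. Its wild-type levels were 0.333, 0.646 and 9.03 FPKM in 45555, 47298 and 45566B, 3.06 in 33373 and 1.45 in 33377. For each of the 3 ligands the lowest library of each state was that of 45555 and the highest that of 45566B.

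Hbegf (HB-EGF) was also lowest in 45555 but had a different leader. It was at 6.91 FPKM in 45555, 52.8 in 47298, 23.1 in 45566B and 22.1 in 46295 among knockout libraries. The wild-type libraries held 3.48 FPKM in 45555, 9.98 in 47298, 25.7 in 45566B, 29.1 in 33373 and 16.9 in 33377. The 47298 knockout library was the highest of all 9, although its wild-type counterpart was the second lowest of its state.

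Ereg (epiregulin) ran against Areg, Tgfa and Btc. It was highest in 45555, with 13.2 FPKM in knockout and 8.54 in wild type, and stood at 5.50 FPKM in 33377. In the other knockout libraries it was at 1.85 FPKM (47298), 1.88 (45566B) and 0 (46295, listed at 0). The other wild-type values were 1.64 FPKM in 47298, 1.39 in 45566B and 0.871 in 33373. Over the 9 libraries the Pearson correlation of Ereg and Areg on the log2(FPKM + 1) scale was -0.67, and that of Areg and Btc was 0.96. These are descriptions, since libraries of the same line share their cells.

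Nrg1 (neuregulin 1), a ligand of ERBB3 and ERBB4, was at 5.33, 9.79, 6.92 and 1.54 FPKM in the knockout libraries of 45555, 47298, 45566B and 46295. In wild type it was at 5.27, 4.16 and 7.06 FPKM in 45555, 47298 and 45566B, 3.99 in 33373 and 19.7 in 33377. It was lowest in 46295 and highest in 33377, and the 2 states overlapped.

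The ligand that led the sum of the 6 therefore differed by line. Areg led in 45566B, with 59.1% of the sum in knockout and 53.2% in wild type, and in 46295 with 37.2%. Hbegf led in 47298, with 69.7% in knockout and 50.0% in wild type, and in 33373 with 45.7%. Ereg led in 45555, with 49.0% in knockout and 47.3% in wild type. Nrg1 led in 33377 with 36.4%. In each of the 3 lines present in both states, the leading ligand was the same gene in both.

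**Figure D2:**
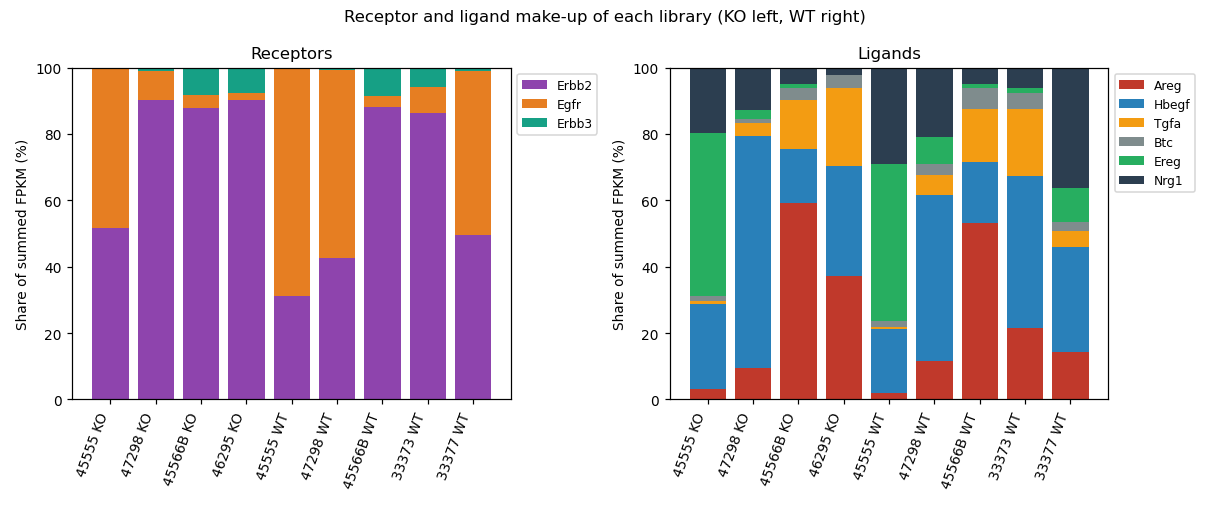
Share of the summed FPKM (y axis, %) taken by each receptor (left panel) and each ligand (right panel) in each library, with the 4 knockout libraries left of the 5 wild-type libraries. Erbb2 takes 86.3 to 90.3% of the receptor sum in 5 libraries and 31.3 to 51.6% in the other 4, and the leading ligand goes with the line.

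Set beside the markers, Erbb3 and Tgfa were closest to Epcam, an adhesion molecule of epithelial cells. Epcam was at 681 and 524 FPKM in 45566B knockout and 46295, at 720 and 420 FPKM in 45566B wild type and 33373, and at most at 2.36 FPKM in the other 5 libraries. The correlation with Epcam over the 9 libraries was 0.95 for Erbb3, 0.95 for Tgfa, 0.91 for Btc, 0.89 for Areg and 0.77 for Erbb2. The correlation was 0.50 for Hbegf, -0.35 for Nrg1, -0.56 for Egfr and -0.69 for Ereg. For Erbb2 it was higher with Krt18, a keratin of simple epithelia, at 0.94. In 47298 knockout, Krt18 was at 250 FPKM and Epcam at 0.581, against 52.7 and 0.324 FPKM in 47298 wild type. Libraries from lines with both states count 2 times in these values, so they carry no test.

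**Figure D3:**
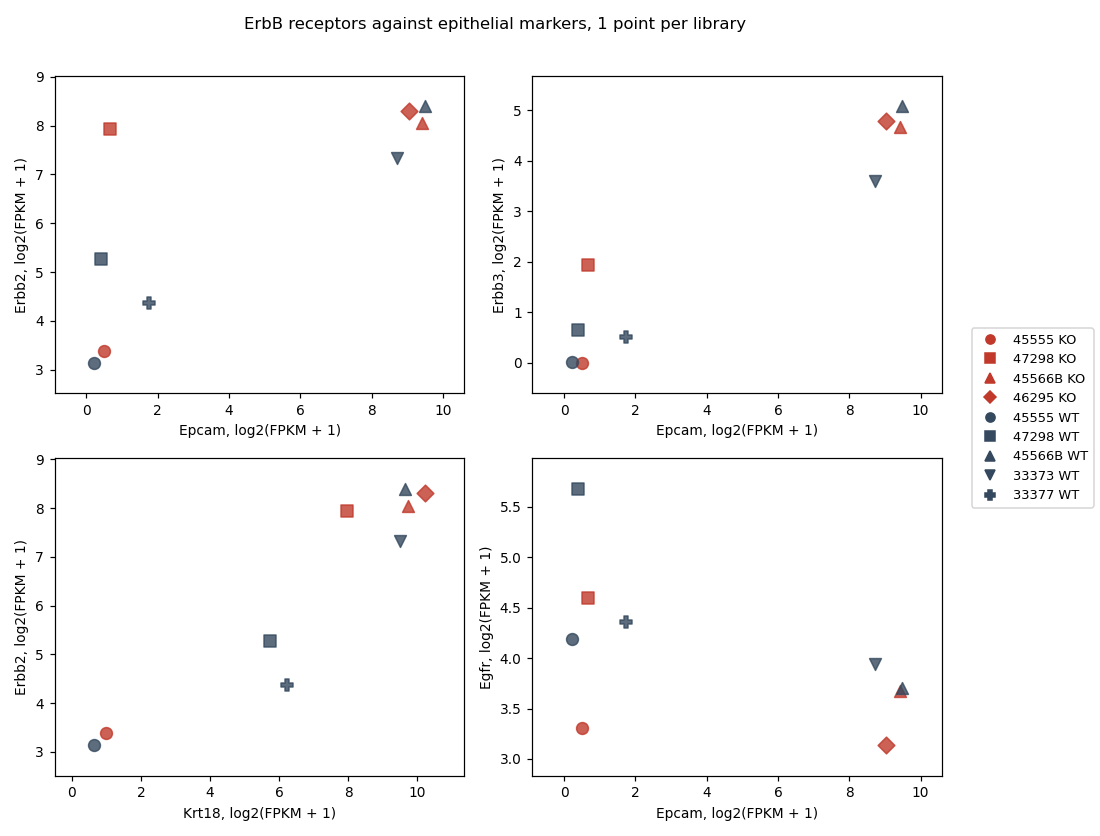
Level of Erbb2, Erbb3 and Egfr (y axes) against Epcam or Krt18 (x axes), all as log2(FPKM + 1), 1 point per library, with shape for the line and red for knockout above dark for wild type in the legend. In the Erbb2 panels 47298 knockout lies at the low end of Epcam and near the high end of Krt18.

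Genes with the most similar profiles were found among 11335 named genes over the 9 libraries. For Erbb2 these were Xk (Pearson correlation on the log2(FPKM + 1) scale 0.997), Sort1 (0.991) and Cgn (0.988). Xk stood at 2.005 FPKM in 47298 knockout and 0.887 in 47298 wild type. For Erbb3 they included Hook1 (0.998) and Mia (0.992). For Egfr they were Ric8b (0.963), Gatsl2 (0.955) and Maf (0.955). Ric8b ran from 3.95 to 5.65 FPKM. Maf was at 12.95 FPKM in 47298 wild type, the library also highest in Egfr, and at most at 1.57 FPKM in the others. The 3 closest to Areg were Dyrk3, Trim7 and Faah (0.982 to 0.985), to Tgfa Tnfaip3, Fam83h and Nbeal2 (0.993 to 0.994), and to Btc Nfkbid, Mgll and Ttc39a (0.981 to 0.989). Ereg was closest to Ppp1r8, Mthfd1l and Sec13 (0.979 to 0.985) and Hbegf to Gde1, Rassf3 and Wwc1 (0.979 to 0.986). Nrg1 was closest to Dock5 at 0.949 and Rnf157 and Slx4 at 0.895 and 0.892. All were picked as the highest of a wide search, and some lines are in both states, so the correlations are descriptions.

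The comparison within a line asks what differs with the Jak1 label when the tumour of origin is the same. In line 47298 the ErbB genes differed widely. Erbb2 was 6.46-fold higher in the knockout library (243 FPKM, against 37.6 in wild type). Hbegf was 5.29-fold higher in knockout (52.8 FPKM, against 9.98 in wild type) and Erbb3 5.11-fold (2.85 FPKM, against 0.557 in wild type). Areg was 3.14-fold, Tgfa 2.50-fold and Nrg1 2.35-fold higher in knockout. Egfr went the other way, at 23.2 FPKM in knockout and 50.2 in wild type, a ratio of 0.462.

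Counted as a difference of 1 or more on the log2(FPKM + 1) scale, 5 of the 8 ErbB genes that averaged 1 FPKM or more over that pair were higher in knockout (Erbb2, Erbb3, Areg, Hbegf and Nrg1). Among all 11671 genes of the pair, 9.1% were. Egfr alone was lower by that much, against 11.8% of all genes. Erbb3 reached the minimum mean only through the knockout library, so the count is a description. Btc, at 1.01 FPKM in knockout and 0.646 in wild type, missed the minimum, and Ereg differed by 0.11. With 1 library per state there is no test.

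Marker genes of other cell types differed in the same pair. The 10 epithelial markers summed to 415 FPKM in 47298 knockout and 100.0 in wild type, with 0 of them listed at 0 in either. Krt8 (157 FPKM in knockout, 38.5 in wild type) and Krt18 made up nearly all of both sums. Krt19 was at 0.307 FPKM in knockout and 5.97 in wild type, and Cldn3 at 5.64 FPKM in knockout and 1.895 in wild type. Epcam, Cdh1, Cldn4, Cldn7, Esrp1 and Grhl2 were at or under 0.581 FPKM in both. The mesenchymal markers summed to 2559 FPKM in knockout and 9115 in wild type, and the 4 adipocyte markers to 15.6 FPKM in knockout and 905 in wild type, with Plin1 and Cfd at 0 in knockout. Their part in the ErbB differences of this line was not tested.

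In line 45555 no ErbB gene reached a 2-fold difference on that scale. Of the 5 that averaged 1 FPKM or more, 0 were higher by that much and 0 lower, against 3.51% and 7.3% of all 11158 genes. Egfr was at 8.89 FPKM in knockout and 17.2 in wild type, a log2 difference of -0.88, and Hbegf at 6.91 FPKM in knockout and 3.48 in wild type, a log2 difference of 0.82. Ereg was 1.55-fold and Erbb2 1.21-fold higher in knockout. Areg, Btc, Tgfa and Erbb3 were below a mean of 1 FPKM. Of these, Areg was 2.36-fold and Tgfa 3.00-fold higher in knockout as plain FPKM ratios, at levels under 0.9 FPKM. Acta2 was at 1295.5 FPKM in 45555 knockout and 178 in wild type, and its part in these values was not tested.

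In line 45566B, with the highest levels of Areg, Btc and Tgfa, the 2 states were closest. All 9 detected genes averaged 1 FPKM or more, and 0 differed by 2-fold or more in either direction. Among all 11133 genes of the pair 0.988% were higher and 2.52% lower by that much. The widest difference was that of Btc, at 5.29 FPKM in knockout and 9.03 in wild type (log2 difference -0.67). Erbb2 was at 264 FPKM in knockout and 335 in wild type and Erbb3 at 24.5 FPKM in knockout and 32.8 in wild type, and Egfr differed by -0.02 on the log2 scale.

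**Figure D4:**
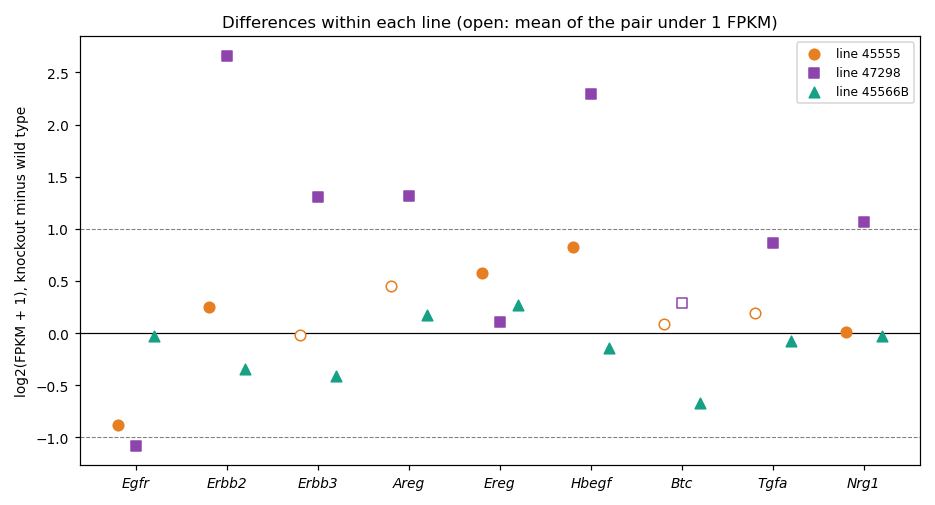
Difference of log2(FPKM + 1), knockout minus wild type (y axis), for each ErbB gene in the lines 45555 (circles), 47298 (squares) and 45566B (triangles), with dashed lines at 1 and -1 and open symbols where the mean of the pair was under 1 FPKM. Beyond the dashed lines lie only values of 47298, with Erbb2 at 2.66 and Egfr at -1.08.

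Tested over the 3 pairs, with the line as a block, no ErbB gene passed, and 0 of 9 had an unadjusted p under 0.05 in limma. At a threshold of 0.05 for the adjusted p, limma called 0 of 12063 genes (0%), while 406 had an unadjusted p under 0.05 in the same fit. Of the 9 ErbB genes tested 7 were higher and 2 lower, with a median log2 fold change of 0.33, while 48.6% of all genes were higher and their median was -0.01. With every library rescaled to the same sum 8 were higher, Btc (-0.10) coming out at 0.01, and 65.3% of all genes were higher. Without line 47298, 4 were higher and 5 lower, with a median of -0.01. Egfr was lower in 2 lines and nearly equal in 45566B, where its difference of -0.02 came out at 0.06 with rescaling. Its fitted value was a log2 fold change of -0.66 (SE 0.27, 95% confidence interval -1.39 to 0.07, limma adjusted p = 0.762). Areg and Ereg were higher in 3 of 3 lines, at 0.65 (SE 0.28, interval -0.13 to 1.43) and 0.32 (SE 0.20, interval -0.23 to 0.87). In 45555 Areg was below the minimum mean, at 0.868 FPKM in knockout and 0.369 in wild type, and Ereg differed by 0.11 in 47298.

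Hbegf had the highest estimate of the pairs at 0.99 (SE 0.51, interval -0.42 to 2.40), followed by Erbb2 at 0.85 (SE 0.66, interval -0.94 to 2.65). Without line 47298 these were 0.34 and -0.05, and Erbb3 and Nrg1 also changed sign, at -0.21 and -0.01, against 0.29 and 0.35 with it. Areg then came to 0.31 and Tgfa to 0.06, against 0.65 and 0.33 with the line. Each interval of the 9 genes included 0, and each but those of Egfr, Ereg and Btc also included 1, a 2-fold higher level in knockout.

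Over all 9 libraries, which asks how the 4 knockout libraries differ from the 5 wild-type ones across 6 lines and leaves out that 3 of them are in both, limma called 0 of 12198 genes (0%), with 144 at an unadjusted p under 0.05. Egfr averaged 12.9 ± 7.06 FPKM in knockout (SD, n = 4) and 22.7 ± 15.65 in wild type (SD, n = 5). Its log2 fold change was -0.69 (SE 0.45, interval -1.70 to 0.32, limma adjusted p = 1.00). An exact two-sided permutation test of the 4 against 5 libraries gave p = 0.198 for Egfr, the smallest of the 9 genes, where the smallest p this design allows is 0.00794. The test treats the 9 libraries as exchangeable and so ignores that 3 lines are in both states. For the others the exact permutation p lay between 0.444 and 0.937. Erbb2 averaged 207.5 ± 135 FPKM in knockout (SD, n = 4) and 112 ± 139 in wild type (SD, n = 5), a log2 fold change of 1.22 (SE 1.33, interval -1.80 to 4.23). For the other 7 genes the estimate lay between -0.34 (Nrg1) and 0.88 (Erbb3), and each SE was above 0.5. Single libraries moved these values: Erbb2 came to 2.39 without 45555 knockout and 0.58 without 45555 wild type, and Erbb3 ran from 0.24 without 46295 to 1.83 without 45555 knockout. The columns of 33373 and 33377 are named in another form than the other 7, and whether all were scaled together is not known. Without those 2 lines limma called 0 genes, with 1.31 for Erbb2, -0.84 for Egfr, 1.01 for Hbegf and 0.77 for Tgfa. Leaving out line 47298, an alternative chosen after the data were seen, gave 0.77 for Erbb2, 0.04 for Hbegf (0.58 with it) and -0.67 for Egfr (interval -1.25 to -0.10, limma adjusted p = 1.00).

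**Figure D5:**
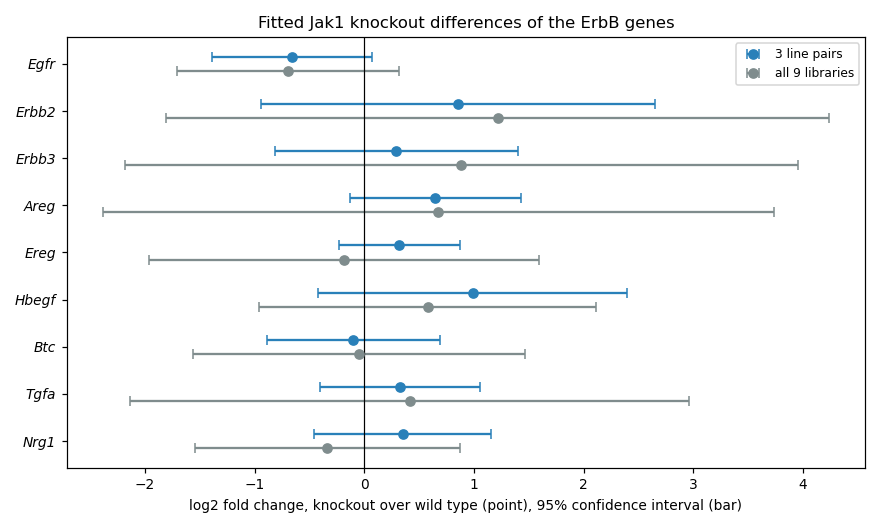
Fitted log2 fold change, knockout over wild type (x axis, points) with its 95% confidence interval (bars), for each ErbB gene over the 3 line pairs (blue) and over all 9 libraries (grey). Every bar crosses 0, and the bars of the pairs are shorter for each gene.

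Other ligands of the family were low, apart from Nrg2. Nrg2 (neuregulin 2) was at 0.389, 7.87, 10.7 and 2.62 FPKM in the knockout libraries of 45555, 47298, 45566B and 46295. In wild type it was at 0.339, 1.04 and 14.7 FPKM in 45555, 47298 and 45566B, 2.60 in 33373 and 0.483 in 33377. Like Erbb2 it was higher in knockout in 47298 and lower in 45566B. Its log2 fold change over the pairs was 0.58 (SE 0.57, limma adjusted p = 0.790). Nrg4 stayed between 1.19 and 2.07 FPKM. Epgn (epigen) was at most at 1.98 FPKM, in 47298 knockout, and Egf was at most at 0.334 and Nrg3 at most at 0.0209 FPKM.

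Proteins that free the ligands and those that pass on or restrain the receptor signal were counted in the same fits. In both fits 0 of 5 shedding genes, 0 of 9 adaptor genes and 0 of 8 restraint genes passed in either direction. Their median log2 fold changes over the pairs were 0.24, -0.03 and -0.03, against -0.01 for all genes. Adam17, the main protease that cuts EGFR ligands, differed by -0.20, -0.20 and -0.19 in 45555, 47298 and 45566B (fitted value -0.20, SE 0.14, limma adjusted p = 0.762, and -0.05 with rescaling). Rhbdl2, a rhomboid protease, had 0.58 (SE 0.53).

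Errfi1 encodes MIG6, a direct inhibitor of ErbB kinases that ERK signalling induces. It was at 72.4, 44.0, 18.9 and 28.3 FPKM in the knockout libraries of 45555, 47298, 45566B and 46295. Wild type held 274, 90.6 and 18.2 FPKM in 45555, 47298 and 45566B, 47.3 in 33373 and 127 in 33377. Its fitted log2 fold change over the pairs was -0.96 (SE 0.42, limma adjusted p = 0.762), and the 2 states of 45566B differed by 0.05. Lrig3 (-0.69, SE 0.28) and the adaptors Shc1 (-0.64, SE 0.27) and Gab2 (-0.78, SE 0.39) were likewise lower in knockout in 45555 and 47298 and differed by -0.03, 0.02 and 0.10 in 45566B. These genes are named because they had the smallest limma p of their lists in these data. Over the pairs, 4 adaptor genes were higher and 5 lower, and 3 restraint genes were higher and 5 lower.

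The neighbours of mouse Erbb2 on chromosome 11 are read here as separate genes of the mouse locus. Erbb2 spans 98412470 to 98437716 on the plus strand of build mm10. Grb7, an adaptor gene that starts 8.68 kb downstream, was at 0.0537, 0.123, 10.8 and 20.8 FPKM in the knockout libraries of 45555, 47298, 45566B and 46295. In wild type it was at 0.0239, 0.0915 and 9.95 FPKM in 45555, 47298 and 45566B, 6.31 in 33373 and 0.0434 in 33377. Grb7 was near 0 in both libraries of 47298, where the Erbb2 row differed 6.46-fold. Ppp1r1b and Stard3, on the other side of Erbb2, were higher in the knockout library of that line.

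Upstream, Pgap3 (12 kb away) was at 2.995 FPKM in 47298 knockout and 2.30 in wild type, and Stard3 (31.4 kb away) at 22.4 FPKM in 47298 knockout and 14.7 in wild type. Ppp1r1b (54.7 kb away) was at 6.73 FPKM in 47298 knockout and 0.247 in wild type. In the knockout libraries of 45555, 45566B and 46295, Ppp1r1b was at 0, 2.995 and 11.7 FPKM and Stard3 at 9.99, 27.9 and 32.85. In the wild-type libraries of 45555, 45566B, 33373 and 33377, Ppp1r1b was at 0, 5.26, 7.18 and 0.846 FPKM. Stard3 was at 11.5, 40.3, 27.6 and 11.4 FPKM in the same libraries. Mien1, on the opposite strand, overlaps the end of Erbb2 by a short stretch (gap -0.009 kb). Only reads within that stretch cannot be separated without strand information. Mien1 was at 77.6 FPKM in 47298 knockout and 63.7 in wild type. Tcap was at most at 0.0884 FPKM, and Pnmt and Ikzf3 were listed at 0 throughout. Of the 5 neighbours tested over the pairs 0 passed in either direction.

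A cluster on chromosome 5 holds Epgn, Ereg, Areg and Btc within 376 kb. Ereg lies from 91074622 to 91093646 and Areg from 91139599 to 91148432, both on the plus strand and 46 kb apart, and Btc from 91357261 to 91402994 on the minus strand. Ereg was highest in 45555 in both states, the line in which Areg and Btc were lowest. Egfr lies on chromosome 11 from 16752203 to 16918158 and Tgfa on chromosome 6 from 86195223 to 86275719, both on the plus strand. Erbb3 lies on chromosome 10 from 128567523 to 128589652, Erbb4 on chromosome 1 from 68032186 to 69108059, Nrg1 on chromosome 8 from 31814551 to 32884029 and Hbegf on chromosome 18 from 36504927 to 36515805, all on the minus strand. Positions are those of GENCODE vM21, and all 10 genes are protein coding.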

How the data were processed

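RNA of 9 cultures was read by RNA-seq, per the labels' protocols from polyadenylated RNA by oligo-dT priming. The authors deposited FPKM values for 24346 genes, and the submitters' processing notes name cutadapt, TopHat2 2.1, Cufflinks 2.2, Cuffnorm and build mm10. No source used here gives the scaling option, the annotation or the strandedness. A smaller table with 4 of the columns held identical values. Left out were 4 rows with repeated names; another 27 names had been turned into dates.

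Values were tested as log2(FPKM + 1), which understates changes of low genes, with limma (version 3.58.1, R 4.3.3) and a mean-variance trend, for genes averaging 1 FPKM or more, and with Benjamini-Hochberg adjustment over all of them at 0.05. The 3 lines in both states were fitted with the line as a block, and all 9 libraries without one. Same-line libraries deviated together, with correlations of 0.7, 0.399 and 0.804 in 45555, 47298 and 45566B; the pairing comes from the line named in the titles. Within a line, differences of 1 or more on the log2 scale were counted with no test. The fits were tested on simulated data. Alternatives were another pseudocount, no filter, 2 rescalings, the block added or removed, and libraries or lines left out. The genes and lists were chosen with earlier results of these data known. The text names all 10 genes, Jak1, markers, every other EGF-family ligand and Erbb2 neighbour, the 2 genes of each other list with the smallest p over the pairs, and the 3 most similar genes of each, of which 1 is not reported here.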

Additional observations from a re-analysis of the deposited data

Results flagged for a closer look

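In 4 of 18 groups of ErbB gene levels, 1 library stood apart by Dixon's test at the 95% level. The test was run on plain FPKM, and each flagged library was the highest of its group. For independent values with a normal spread, chance gives this in about 1 of 20 groups. Plain FPKM of different lines need not have that spread and the genes share libraries, so these rates cannot be compared. Ereg was at 13.23 FPKM in 45555 knockout, with a gap to the next knockout library of 0.858 of the range of the group. Egfr was at 50.19 FPKM in 47298 wild type, with a gap of 0.802 of the range. Areg was at 74.48 FPKM in 45566B wild type (0.82 of the range), and Nrg1 was at 19.66 FPKM in 33377 (0.804 of the range).

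For 4 genes that differed by 1 or more on the log2(FPKM + 1) scale in line 47298, the difference between knockout and wild type had the opposite sign in 45566B. With 1 library per line and state, the difference between the lines was not tested. The value in 47298 minus that in 45566B was 3.01 for Erbb2, 2.44 for Hbegf, 1.71 for Erbb3 and 1.09 for Nrg1. For Nrg1 the sign rests on -0.03 in 45566B, which came out at 0.06 with every library rescaled to the same sum. Tgfa and Btc also had opposite signs in the 2 lines, with differences under 1 in each. For Tgfa the sign rests on -0.08 in 45566B, which came out at 0.0079 with the same rescaling. Btc missed the minimum mean in 47298.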

How the results depend on the processing

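Over 214 refits of the ErbB genes, 192 kept their direction, 22 reversed and 0 passed the threshold, with a smallest limma adjusted p of 0.674. Egfr was lower and Hbegf higher in knockout in every one of theirs, between -0.9997 and -0.37 for Egfr and between 0.04 and 1.56 for Hbegf. The refits share libraries and are not independent. Within line 45566B Hbegf was lower in knockout (log2 difference -0.15), and Egfr came to 0.06 with rescaling. Over the pairs, Btc turned to 0.0167 with a pseudocount of 0.1 and to 0.0137 with rescaling to a sum of 1000000. Leaving out a line in turn gave -0.0506 to 1.45 for Erbb2, -0.21 to 0.45 for Erbb3 and -0.0053 to 0.54 for Nrg1, each lowest without 47298. Over all 9 libraries, Btc turned to 0.0009 with rescaling and to 0.0166 without 33373 and 33377. Leaving out a library in turn gave 0.58 to 2.39 for Erbb2, 0.24 to 1.83 for Erbb3, -0.21 to 1.63 for Areg, -0.89 to 0.39 for Ereg, -0.43 to 0.39 for Btc, -0.17 to 1.22 for Tgfa and -0.61 to 0.0838 for Nrg1. Within these ranges Ereg was also above 0 without 45555 wild type (0.152) and 33377 (0.0134), Nrg1 without 33377 (0.0195), and Btc without 45555 knockout (0.284), 47298 knockout (0.114) and 33373 (0.0652). Tgfa was below 0 without 46295 (-0.0334) and 45555 wild type (-0.131) as well as 45566B knockout, the library without which Areg was. With the line as a replicate block over all 9 libraries, Ereg turned to 0.32 and Nrg1 to 0.35. The block changed no call: 0 genes passed over the pairs without it and over all 9 libraries with it. The number of genes called ran from 0 to 6 over the pairs, where 6 short noncoding RNAs (Mir1949, Mir6385, Mir6939, Mir7068, Snord65 and Snord73a) passed without line 47298. It ran from 0 to 1 over all 9 libraries, with Mir3063 without 45555 knockout, Mir1895 without 45566B knockout and Mir6921 without 45555 wild type. The cause was not tested.

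The same rescaling moved the median log2 fold change of all genes over the pairs to 0.13, against -0.01 as deposited. Of 63 recomputed within-line values with an SD over lines 62 moved by less than it, and Ereg in 47298 came to 0.37 with rescaling, against 0.11. Btc in 45566B, with no such SD, ran from -0.76 to -0.62. The counts of 2-fold differences stayed within 1.5 times. Values below 1 FPKM rest on few fragments, and the mouse Erbb2 row may hold reads of the rat transgene.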
